A study of Sus scrofa with 9 samples.

Results

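The complement genes described here are 9 components, receptors and regulators: C3, C1S, C1R, C2, CFB, CFD, C5AR1, C3AR1 and SERPING1. They were taken as the rows whose gene symbol is 1 of these names in a table of 25149 genes. 6 of the 9 names were found (C1R, C2, CFD, C3, C5AR1 and SERPING1), and 5 of those 6 reached 1 TPM in at least 3 of the 9 hearts and could be tested. TPM, the unit of the table, is a gene's share of all transcripts in a library after correction for gene length, so that levels of different genes in a heart can be set side by side.

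The hearts came from 9 female American Yorkshire pigs aged 4 to 6 months, in a model of donation after circulatory death (DCD), in which the heart is recovered after the circulation has stopped. All donors had 15 min of warm ischemia, and each group held 3 hearts. In NRP + SCS 2 h, the stopped circulation was restored at body temperature inside the donor (normothermic regional perfusion, NRP) for 60 min and the heart was then kept in static cold storage (SCS) at 4 °C for 2 h. In NRP + HOPE 24 h, the same NRP was followed by 24 h of hypothermic oxygenated perfusion (HOPE) at 8 °C, and in No NRP + HOPE 2 h the heart was taken without NRP and kept on HOPE at 8 °C for 2 h. All hearts were then reperfused for 2 h by normothermic machine perfusion (NMP) on a circuit primed with donor blood, and RNA was taken from frozen biopsies of the apex. The HOPE perfusate also held donor packed red cells. Each group is therefore a set of storage conditions and not a single factor: NRP + HOPE 24 h differs from NRP + SCS 2 h in the kind, temperature and length of storage, and No NRP + HOPE 2 h differs from NRP + SCS 2 h in NRP as well as in the kind and temperature of storage. These components cannot be told apart.

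Complement is a cascade of blood and tissue proteins that marks microbes and damaged cells and recruits leukocytes to them. The classical route starts with C1q, which carries the proteases C1r and C1s, and uses C4 and C2. The alternative route uses factor B (CFB) and factor D (CFD), a protease that cuts factor B, and both routes meet at C3. Cleavage of C3 and C5 releases the small peptides C3a and C5a, which act on the receptors C3AR1 and C5AR1 of neutrophils and macrophages, while C1 inhibitor (SERPING1) blocks C1r and C1s. Complement activation is a known part of ischemia-reperfusion injury in the heart.

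The labels give the cell type as cardiomyocytes, although whole apex biopsies were sequenced. The sum of 5 cardiomyocyte markers lay between 16577 and 30394 TPM, and the sum of 5 fibroblast markers between 669 and 1150 TPM. The 7 listed monocyte and macrophage markers summed to 63.7 to 172 TPM, so the complement levels are those of a mixed tissue. The 13 mitochondrially encoded genes took from 38.2% (pig 30) to 55.3% (pig 27) of the total TPM, both in NRP + HOPE 24 h. A median-of-ratios factor, which aligns the typical gene between hearts, ran from 0.737 in pig 27 to 1.34 in pig 30. TPM values of those 2 hearts are therefore the furthest apart in scale, and results that moved with the scaling are given with it.

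The starter proteases and the C3a receptor gave no usable signal. C1R was listed at 0 in all 9 hearts. C1S was found neither by symbol nor by gene ID. C3AR1 has no symbol in the table, and the row that carries its gene ID was listed at 0 in all 9 hearts. Rows of other genes, such as the leukocyte genes CSF3R and MPO, were also listed at 0 in every heart, and a 0 in this table is not read as absence of the transcript.

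CFB likewise has no symbol in the table and falls outside the rule, but the row with its gene ID was above 0 in each heart. It stood at 0.346, 0.404 and 0.398 TPM in NRP + SCS 2 h, at 0.542, 0.795 and 0.631 TPM in NRP + HOPE 24 h and at 0.293, 0.850 and 1.21 TPM in No NRP + HOPE 2 h. It passed 1 TPM in only 1 heart (pig 34) and was not tested. CFB lies directly beside C2 in the RefSeq annotation of the pig assembly Sscrofa11.1, with 0 genes between them, and C2 was the member that varied most.

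Of the 5 members tested, the alternative-route protease CFD and the inhibitor SERPING1 had by far the highest levels. CFD averaged 139.7 TPM over the 9 hearts and SERPING1 118.6 TPM, above 95.9% and 95.2% of the 11782 genes tested. The C5a receptor C5AR1 followed at 9.76 TPM. C2, the protease of the classical route, averaged 3.60 TPM and C3, the central component, 3.21 TPM, and these 2 levels did not differ beyond their spread, with a ratio of C2 to C3 from 0.42 to 3.18 between hearts. CFD and SERPING1 did not keep 1 order either: CFD lay between 0.65 and 1.72 times SERPING1. Together these 2 genes made up 91.8% to 96.6% of the summed TPM of the 5 members in every heart.

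The spread between all 9 hearts, as a coefficient of variation, was 73.4% for C2, 50.6% for C3, 35.1% for C5AR1, 34.6% for SERPING1 and 31.9% for CFD. C2 varied more than 89.2% of the genes tested, and CFD more than 39.9% of them. The plot of TPM by heart shows that the spread of C2 came mostly from 1 heart of No NRP + HOPE 2 h (pig 34), while that of C3 came mostly from 2 hearts of NRP + HOPE 24 h (pigs 27 and 30).

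**Figure D1:**
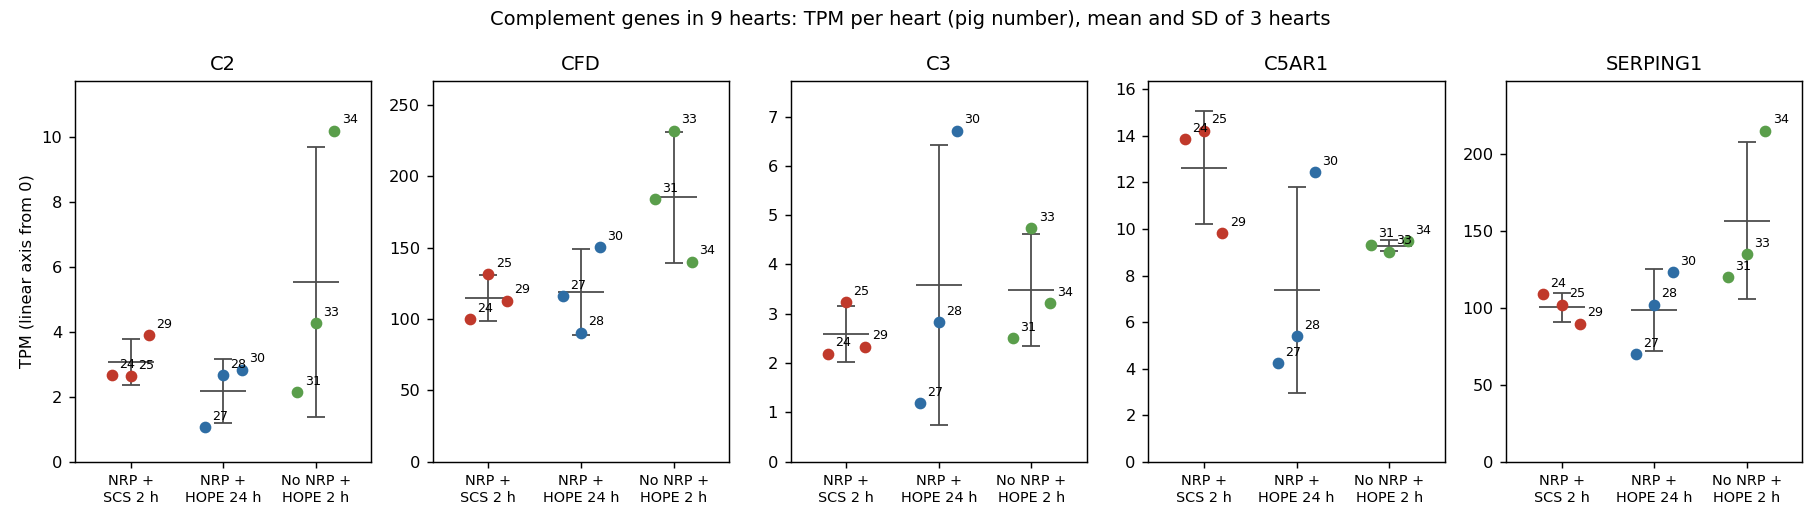
TPM of the 5 tested complement genes (y axis, linear from 0, a scale of its own for each gene) in each of the 9 hearts, in 3 groups on the x axis, with points for hearts labelled by pig number, horizontal lines for means of 3 hearts and bars for ± SD. CFD and SERPING1 lay higher in all 3 No NRP + HOPE 2 h hearts than in all 3 NRP + SCS 2 h hearts, and the C5AR1 points of No NRP + HOPE 2 h lay between 9.03 and 9.49 TPM.

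Summed over the 5 members, the level was 228, 254 and 219 TPM in NRP + SCS 2 h (pigs 24, 25 and 29), 193, 204 and 295 TPM in NRP + HOPE 24 h (pigs 27, 28 and 30) and 318, 385 and 379 TPM in No NRP + HOPE 2 h (pigs 31, 33 and 34). Each of the 3 No NRP + HOPE 2 h hearts thus had a higher summed level than each of the other 6 hearts. The group means were 234 ± 18.3 TPM in NRP + SCS 2 h, 231 ± 56.3 TPM in NRP + HOPE 24 h and 361 ± 36.9 TPM in No NRP + HOPE 2 h (SD, n = 3 each). This separation held with median-of-ratios scaling, where No NRP + HOPE 2 h spanned 319 to 407 against 204 to 262 in the other 6 hearts, and with the mitochondrially encoded genes left out, where it spanned 686 to 757 against 432 to 503. The sum is a description with no test, and CFD and SERPING1 set it.

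The effect of 24 h of HOPE against 2 h of SCS after NRP was examined by setting NRP + HOPE 24 h beside the NRP + SCS 2 h hearts (the preservation comparison). The C5a receptor C5AR1 was the member with the largest difference, at 13.9, 14.2 and 9.83 TPM in NRP + SCS 2 h and 4.25, 5.41 and 12.4 TPM in NRP + HOPE 24 h. Pigs 27 and 28 lay below every NRP + SCS 2 h heart, while pig 30 lay among them, so the groups overlapped. The mean was 7.36 ± 4.43 TPM after 24 h of HOPE and 12.6 ± 2.44 TPM after SCS (SD, n = 3 each).

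On log2(TPM + 1), where the change of a gene with few TPM is understated, C5AR1 differed by -0.81 (SE 0.36, 95% interval -1.58 to -0.05), with an unadjusted p = 0.0390 and a Benjamini-Hochberg adjusted p = 0.965 by limma. It did not pass the threshold of an adjusted p under 0.05. The value was -1.22 without pig 30 and -0.54 without pig 27, and the unadjusted p was above 0.05 when pig 24, 25, 27, 28 or 33 was left out. With the mitochondrially encoded genes left out, C5AR1 was lower in all 3 NRP + HOPE 24 h hearts, at 9.52 to 20.1 on that scale against 20.8 to 28.2, but with median-of-ratios scaling the groups overlapped (9.25 in pig 30 against 9.16 in pig 29).

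None of the other 4 members separated these 2 groups. CFD stood at 99.9, 132 and 113 TPM in NRP + SCS 2 h and at 116, 90.5 and 150.2 TPM in NRP + HOPE 24 h, and SERPING1 at 109, 102 and 89.9 TPM against 70.1, 102 and 123 TPM. Their log2 differences were 0.03 (95% interval -0.57 to 0.63) for CFD and -0.06 (95% interval -0.70 to 0.58) for SERPING1, and these intervals bound the shift that the 6 hearts leave room for. Leaving out 1 heart turned the sign of both, with ranges of -0.15 (without pig 30) to 0.21 (without pig 28) for CFD and -0.24 (without pig 30) to 0.16 (without pig 27) for SERPING1. C3 ranged from 1.19 TPM (pig 27) to 6.71 TPM (pig 30) within NRP + HOPE 24 h, wider than the 2.19 to 3.23 TPM of NRP + SCS 2 h, with a log2 difference of 0.17 (SE 0.42) that ran from -0.30 without pig 30 to 0.61 without pig 27. C2 was at 2.67, 2.64 and 3.90 TPM against 1.06, 2.67 and 2.83 TPM, a log2 difference of -0.39 (SE 0.44) that was -0.10 without pig 27 and -0.25 without pig 29.

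By limma, 0 of the 5 members had an adjusted p under 0.05 in this comparison, beside 0.0255% of all genes tested. At an unadjusted p under 0.05 it was 1 of 5 (C5AR1, lower), beside 4.97% of all genes (1.82% higher and 3.14% lower). The 2 groups overlapped for all 5, while they did not overlap for 9.82% of all genes (2.5% higher and 7.32% lower). The median log2 difference of the members was -0.06. The median of all genes was itself -0.12, and 0.00030 with median-of-ratios scaling, so small negative values here sit at the level of the typical gene.

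C5AR1 is carried mainly by myeloid cells, and in bulk tissue fewer such cells and less RNA per cell cannot be told apart. The 7 of 9 listed monocyte and macrophage markers summed to 122 to 144.5 TPM in NRP + SCS 2 h, 63.7 to 161 TPM in NRP + HOPE 24 h and 95.5 to 172 TPM in No NRP + HOPE 2 h. For neutrophils, 5 of 8 markers were listed, with CSF3R and MPO at 0 in all hearts. Their sum ran from 4.85 to 14.5 TPM in NRP + SCS 2 h, from 1.52 to 5.46 TPM in NRP + HOPE 24 h and from 0.799 to 4.26 TPM in No NRP + HOPE 2 h, and was carried by S100A8, S100A9 and ELANE. Their part in the C5AR1 values was not tested.

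The contribution of NRP was examined by setting No NRP + HOPE 2 h beside the NRP + SCS 2 h hearts (the NRP comparison). CFD was at 184, 232 and 140.3 TPM in No NRP + HOPE 2 h, each above the highest NRP + SCS 2 h heart at 132 TPM. The means were 185 ± 45.9 TPM and 115 ± 16.0 TPM (SD, n = 3 each). The log2 difference was 0.67 (SE 0.28, 95% interval 0.06 to 1.27), with an unadjusted p = 0.0331 and an adjusted p = 0.657 by limma.

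The separation of CFD was narrow and moved with the scale. Pig 34 (140.3 TPM) stood above pig 25 (132 TPM) as deposited, but lay below it with the mitochondrially encoded genes left out (254 against 261) and with median-of-ratios scaling (118 against 124). The difference itself was 0.65 and 0.77 on those 2 scales and 0.49 without pig 33. Since CFD is the adipose protease adipsin, adipocyte markers were set beside it: 5 of 8 were listed, with PCK1 at 0 and PLIN1 at or below 0.210 TPM in all hearts. Their sum was 7.75 to 12.7 TPM in NRP + SCS 2 h, 4.46 to 12.5 TPM in NRP + HOPE 24 h and 9.07 to 14.2 TPM in No NRP + HOPE 2 h. It was carried by CIDEA and LIPE. CIDEA had a lower mean in No NRP + HOPE 2 h than in NRP + SCS 2 h (5.43 against 6.33 TPM). LIPE had a higher mean there (5.52 against 3.09 TPM). The part of the adipocyte markers in the CFD values was not tested. The 5 listed fibroblast markers summed to 669 to 982 TPM in NRP + SCS 2 h, 763 to 1116 TPM in NRP + HOPE 24 h and 1020 to 1150 TPM in No NRP + HOPE 2 h, so that all 3 hearts without NRP lay above the NRP + SCS 2 h hearts, as for CFD and SERPING1. Singly, COL3A1 and DCN were higher in all 3 hearts without NRP, beside 4.44% of all genes tested. COL1A2 and LUM overlapped between these groups. PDGFRA overlapped as well and had a lower mean in No NRP + HOPE 2 h (2.82 against 3.95 TPM). The part of the fibroblast markers in the CFD and SERPING1 values was not tested.

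SERPING1 was at 120.2, 135 and 215 TPM in No NRP + HOPE 2 h (pigs 31, 33 and 34), each above the highest NRP + SCS 2 h heart at 109 TPM. The means were 157 ± 51.2 TPM and 100.4 ± 9.68 TPM (SD, n = 3 each). The log2 difference was 0.60 (SE 0.30, 95% interval -0.04 to 1.23), with an unadjusted p = 0.0647 and an adjusted p = 0.718 by limma. Unlike CFD, SERPING1 stayed separate under both other scales, with 125 to 182 in No NRP + HOPE 2 h against 83.7 to 101 in NRP + SCS 2 h after median-of-ratios scaling. The unadjusted p there was 0.00305 and the adjusted p 0.186 by limma. Without pig 34 the difference was 0.35.

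C5AR1 was lower in all 3 No NRP + HOPE 2 h hearts, at 9.33, 9.03 and 9.49 TPM, than in the lowest NRP + SCS 2 h heart at 9.83 TPM. The gap between the groups was narrow, and with median-of-ratios scaling they overlapped. The log2 difference was -0.39 (SE 0.36, 95% interval -1.16 to 0.37), with an adjusted p = 0.884 by limma. The 3 No NRP + HOPE 2 h values lay within an SD of 0.23 TPM of each other, against an SD of 2.44 TPM in NRP + SCS 2 h.

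C2 stood at 2.15, 4.26 and 10.2 TPM in No NRP + HOPE 2 h, and the heart with the lowest value lay below all 3 NRP + SCS 2 h hearts while the other two lay above them. Its log2 difference was 0.50 (SE 0.44), 0.01 without pig 34 and 0.93 without pig 31. C3 was at 2.5, 4.73 and 3.21 TPM in No NRP + HOPE 2 h against 2.19, 3.23 and 2.33 TPM, a log2 difference of 0.30 (SE 0.42) with overlapping groups, and 0.11 without pig 33 and 0.47 without pig 31.

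In all, 0 of the 5 members had an adjusted p under 0.05 by limma, beside 0.0509% of all genes tested, and 1 of 5 (CFD, higher) had an unadjusted p under 0.05, beside 7.22% (2.57% higher and 4.65% lower). The 2 groups did not overlap for 3 of 5 members, beside 14.7% of all genes, namely for CFD and SERPING1 (higher, beside 4.44%) and for C5AR1 (lower, beside 10.3%). With 3 hearts against 3, the exact two-sided permutation test cannot go below 0.1, and it gave 0.1 for each of these 3 genes. The median log2 difference of the members was 0.50, against -0.07 over all genes. This median is the value of C2, whose groups overlapped and which was 0.01 without pig 34.

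Both comparisons above use the same 3 NRP + SCS 2 h hearts, so their values are not independent. The 2 HOPE groups, which differ in NRP and in storage time, were also compared (the HOPE comparison, as NRP + HOPE 24 h minus the hearts without NRP). In the same fit, each log2 difference of the HOPE comparison is the preservation difference minus the NRP difference. The HOPE comparison thus adds no independent evidence to the other 2. All 5 members had a lower mean on log2(TPM + 1) in NRP + HOPE 24 h, beside 53.9% of all genes tested, and the median log2 difference was -0.64 over the members and -0.03 over all genes. For C3 the sign turned without pig 27 (0.31) or pig 33 (0.063). The log2 difference was -0.64 for CFD (SE 0.28, unadjusted p = 0.0403, adjusted p = 0.822 by limma) and -0.66 for SERPING1 (SE 0.30, unadjusted p = 0.0444, adjusted p = 0.826 by limma), where SERPING1 was -0.43 without pig 27 and -0.41 without pig 34. For C2 it was -0.89 (SE 0.44, unadjusted p = 0.0612, adjusted p = 0.846 by limma), and -0.41 without pig 34. C5AR1 differed by -0.42 (SE 0.36), with -0.15 without pig 27 and -0.83 without pig 30. C3 differed by -0.13 (SE 0.42), with -0.60 without pig 30 and -0.29 without pig 31.

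As deposited, the 2 HOPE groups overlapped for all 5 members, while 7.48% of all genes did not overlap (2.97% higher and 4.51% lower). With median-of-ratios scaling, SERPING1 was lower in all 3 NRP + HOPE 24 h hearts, at 95.1, 112 and 91.7 against 154, 125 and 182, and the same held with the mitochondrially encoded genes left out. The unadjusted p of SERPING1 was then 0.00677 and 0.00927, with adjusted p = 0.251 and 0.392 by limma. At an unadjusted p under 0.05 there were 2 of 5 members (CFD and SERPING1, both lower), beside 6.01% of all genes (2.78% higher and 3.23% lower), and 0 of 5 at an adjusted p under 0.05, beside 0.0509%. The count at an unadjusted p under 0.05 was 0 when pig 24, 25, 27, 28, 29 or 33 was left out and 1 without pig 34.

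**Figure D2:**
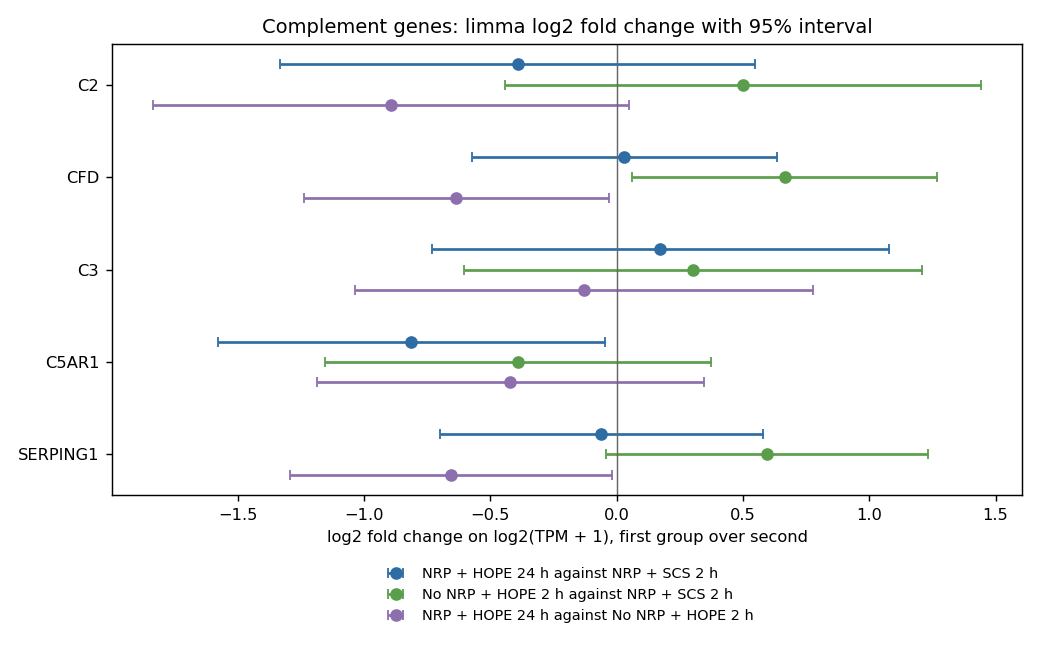
Log2 difference on log2(TPM + 1) (x axis) for each of the 5 tested complement genes (y axis) in the 3 comparisons, marked by colour, with points for limma estimates and bars for their 95% intervals. The intervals that leave out 0 are those of C5AR1 in the preservation comparison, of CFD in the NRP comparison, and of CFD and SERPING1 in the HOPE comparison, before adjustment over all genes.

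Ratios of 2 members within a heart do not depend on the scaling of that heart. Of the 10 ratios among the 5 members, 3 did not overlap in the preservation comparison, beside 15.1% of the ratios among all tested genes above 0 in every heart, and the same 3 did not overlap in the NRP comparison, beside 18.0%. The 3 ratios share C5AR1 and both comparisons share the NRP + SCS 2 h hearts, so they do not count as separate findings. In them C5AR1 is set against SERPING1, CFD or C3. None of the 10 ratios separated the 2 HOPE groups, beside 16.9%.

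C5AR1 stood at 0.127, 0.139 and 0.109 times SERPING1 in NRP + SCS 2 h, at 0.0607, 0.0529 and 0.101 times in NRP + HOPE 24 h and at 0.0776, 0.0669 and 0.0440 times in No NRP + HOPE 2 h. In all 6 HOPE hearts this ratio lay below that of each SCS heart, by a narrow gap in pig 30. CFD stood at 7.21, 9.26 and 11.5 times C5AR1 in NRP + SCS 2 h, at 27.4, 16.7 and 12.1 times in NRP + HOPE 24 h and at 19.7, 25.7 and 14.8 times in No NRP + HOPE 2 h. C3 over C5AR1 was 0.158 to 0.237 in NRP + SCS 2 h, 0.279 to 0.540 in NRP + HOPE 24 h and 0.268 to 0.524 in No NRP + HOPE 2 h.

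These ratios describe a lower level of C5AR1 relative to SERPING1, CFD and C3 in the HOPE hearts, while C2 over C5AR1 overlapped in both comparisons. In NRP + HOPE 24 h the levels of CFD and SERPING1 were close to those of NRP + SCS 2 h and C5AR1 had the lower mean, whereas in No NRP + HOPE 2 h CFD and SERPING1 were higher in all 3 hearts. The ratios were formed after the values were known and carry no test.

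**Figure D3:**
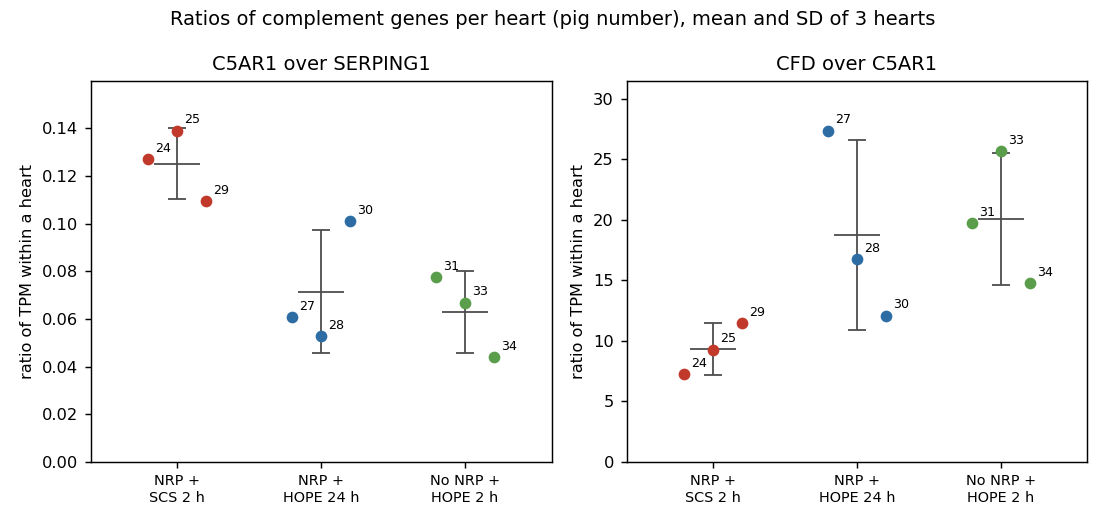
Ratio of C5AR1 to SERPING1 (left) and of CFD to C5AR1 (right) within each heart (y axes, linear from 0, ratio of TPM) in the 3 groups on the x axis, with points for hearts labelled by pig number, horizontal lines for means of 3 hearts and bars for ± SD. The 6 HOPE hearts lay below the 3 NRP + SCS 2 h hearts in the left panel (at most 0.101 against at least 0.109) and above them in the right panel (at least 12.1 against at most 11.5).

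C2 and SERPING1 can be raised by interferon, and both were highest in pig 34 of No NRP + HOPE 2 h. The summed TPM of the 15 listed interferon-stimulated genes was 2435 in that heart and between 306 and 599.5 in the other 8. IRF7 is among the 15 and was listed at 0 in all hearts. The antiviral gene RSAD2, for example, was at 468 TPM in pig 34 and at 8.36 to 52.7 TPM in the others, and IFIT1 at 272 TPM against 7.27 to 56.5 TPM.

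C2 was 10.2 TPM in pig 34, with 4.26 TPM in pig 33 as the next value, and SERPING1 was 215 TPM, with 135 TPM in pig 33 next. CFB, beside C2 in the genome, was also highest in pig 34, at 1.21 TPM. C4A, the classical-route component cut by C1s, stood at 15.7 TPM in pig 34 and at 0.706 to 2.89 TPM in the other 8 hearts. CFD, C3 and C5AR1 were not highest in pig 34: CFD was highest in pig 33, C3 in pig 30 and C5AR1 in pig 25. The other two No NRP + HOPE 2 h hearts, pigs 31 and 33, had interferon sums of 306 and 599.5 TPM, the lowest and the second highest of the 9. The part of the interferon-stimulated genes in the SERPING1 and C2 values was not tested.

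**Figure D4:**
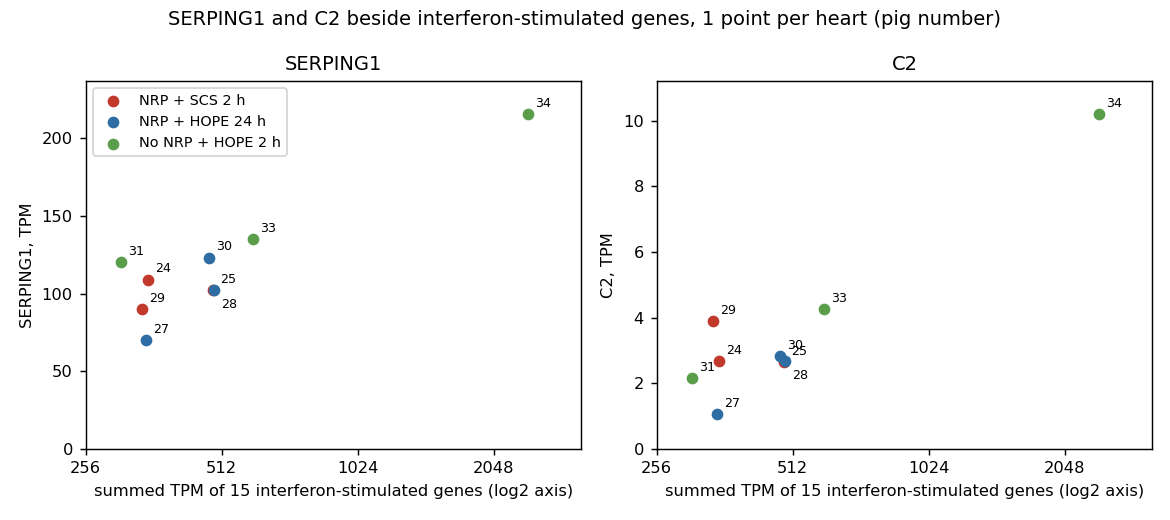
TPM of SERPING1 (left) and C2 (right) on linear y axes from 0 against the summed TPM of 15 interferon-stimulated genes (x axis, log2 scale) in the 9 hearts, each a point labelled by pig number and coloured by group. Pig 34 stands apart at 2435 TPM on the x axis and is the highest in both panels, while the other 8 hearts lie between 306 and 599.5 TPM.

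Across the 9 hearts, the 10 pairs of members had Pearson's r from 0.21 to 0.87 on log2(TPM + 1). C2 and SERPING1 gave the highest, r = 0.87 (permutation p = 0.0092, adjusted over the 10 pairs 0.0922), with Spearman's rho = 0.60 (permutation p = 0.0968, adjusted 0.270). Without the 2 hearts furthest from the median of C2 (pigs 34 and 27) r was 0.02, so the relation rests on those hearts. With each group centred on its mean r was 0.84, which still holds both hearts. CFD and SERPING1, the pair of abundant members, had r = 0.43 (permutation p = 0.244, adjusted 0.449) and rho = 0.68 (permutation p = 0.0503, adjusted 0.270), and r was -0.25 with the groups centred. The higher levels of CFD and SERPING1 in No NRP + HOPE 2 h thus did not go along heart by heart: CFD was lowest of that group in pig 34, where SERPING1 was highest.

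The genes whose log2(TPM + 1) across the 9 hearts was most like each member were sought among 7944 genes with a symbol. For C2 these were CHMP5, a membrane-scission protein (r = 0.99), APLN, the peptide apelin (r = 0.98), and B2M, the light chain of MHC class I (r = 0.98), and 139 genes had r above 0.9. B2M stood at 638 TPM in pig 34 and at 242 to 425 TPM in the other hearts. For SERPING1 they were PLEKHA4 (r = 0.96), ALOX5, which makes leukotrienes (r = 0.96), and DUSP15 (r = 0.95), with 35 genes above 0.9. PLEKHA4 also stood apart in pig 34, at 24.9 TPM against 1.37 to 7.03 TPM.

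C3 was most like SH3BP5 (r = 0.98), CSDC2 (r = 0.98) and the lysosomal protease gene CTSB (r = 0.96), with 56 genes above 0.9, and CTSB ran from 201 TPM in pig 27 to 521 TPM in pig 30, the same ends as C3. C5AR1 was most like COQ6, an enzyme of coenzyme Q synthesis (r = 0.95), LCORL (r = 0.94) and PDGFRB, a receptor of pericytes and fibroblasts (r = 0.93), with 18 genes above 0.9. CFD stood most alone, with 1 gene above 0.9, the nuclear pore gene AAAS (r = 0.94), then HCST (r = 0.88) and NPEPL1 (r = 0.87). These correlations share the scaling and the group differences of the same 9 hearts and are given as a description.

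The rest of the complement system was read from a list of 46 further genes, of which 31 were in the table (1 of them, CFI, by gene ID) and 16 could be tested. By limma, 0 of the 16 had an adjusted p under 0.05 in any of the 3 comparisons. At an unadjusted p under 0.05 there were 0 of 16 in the preservation comparison (beside 4.97% of all genes), 1 of 16 (lower) in the NRP comparison (beside 7.22%) and 3 of 16 (2 higher, 1 lower) in the HOPE comparison (beside 6.01%). The 2 groups compared did not overlap for 1, 4 and 2 of the 16 genes in the same order, beside 9.82%, 14.7% and 7.48% of all genes. The median log2 difference over the 16 was 0.02, 0.06 and -0.11, where that of the 5 members in the NRP comparison was 0.50, the value of C2.

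Of 14 initiation genes, 8 were listed and 5 tested. C1QA, a chain of the C1q molecule made largely by macrophages, was the most abundant at 31.5 to 180 TPM. It stood at 75.5, 91.1 and 180 TPM in No NRP + HOPE 2 h against 31.5, 136 and 38.9 TPM in NRP + SCS 2 h, a log2 difference of 0.95 (SE 0.51) with overlapping groups, and it differed by -0.82 in the HOPE comparison. MASP2, a protease of the lectin route, was at 3.54, 4.57 and 5.21 TPM in No NRP + HOPE 2 h, below all 6 hearts with NRP (5.80 to 9.84 TPM). Its log2 difference was 0.78 (SE 0.31) in the HOPE comparison, with an unadjusted p = 0.0233 and an adjusted p = 0.743 by limma, and -0.61 in the NRP comparison.

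The related protease MASP1 had a log2 difference of 0.68 (SE 0.41) in the preservation comparison. The ficolin FCN2 spread from 0 to 11.3 TPM with differences of -0.76 and -0.77 (SE 0.88) in both comparisons with NRP + SCS 2 h. The collectin COLEC11 differed by 0.77 (SE 0.53) in the NRP comparison. None of these 3 separated any 2 groups. The lectins MBL1 and MBL2 were listed at 0 in all hearts.

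Of 10 genes for C4, C5, properdin and the terminal components that build the membrane pore, 9 were listed and 5 tested. C9, which forms the ring of the pore, was at 8.65, 2.41 and 7.19 TPM in NRP + SCS 2 h, at 7.71, 4.38 and 4.52 TPM in NRP + HOPE 24 h and at 1.61, 3.02 and 1.05 TPM in No NRP + HOPE 2 h. All 3 No NRP + HOPE 2 h hearts lay below all 3 NRP + HOPE 24 h hearts, and pig 33 lay above the lowest NRP + SCS 2 h heart. The log2 difference was -1.22 (SE 0.42) in the NRP comparison, with an unadjusted p = 0.0125 and an adjusted p = 0.533 by limma. It was 1.20 (SE 0.42) in the HOPE comparison, with an unadjusted p = 0.0137 and an adjusted p = 0.652 by limma.

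C7, an earlier component of the pore, was at 8.71, 17.8 and 9.41 TPM in No NRP + HOPE 2 h and above all 3 NRP + SCS 2 h hearts (5.34 to 8.33 TPM), with a log2 difference of 0.74 (SE 0.36, unadjusted p = 0.0615, adjusted p = 0.715 by limma). In the preservation comparison it differed by 0.69 with overlapping groups. C8G differed by -0.79 (SE 0.34, unadjusted p = 0.0367, adjusted p = 0.809 by limma) in the HOPE comparison. C4A differed by -1.16 (SE 0.57) in the same comparison, where pig 34 alone held 15.7 TPM. Properdin (CFP), which stabilizes the alternative-route convertase, was low at 0.465 to 2.12 TPM and lower in all 3 No NRP + HOPE 2 h hearts than in the NRP + SCS 2 h hearts, by -0.42 (SE 0.33). C6, C8A and C8B were listed at 0 in all hearts and C5 did not pass 0.0849 TPM.

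Of 8 soluble regulators, 7 were listed and 2 tested. Clusterin (CLU), which binds the forming pore, stood at 106 to 226 TPM, within the range of CFD, and its log2 differences were 0.10, -0.21 and 0.31 (SE 0.30) in the 3 comparisons. Factor I (CFI), found by gene ID, cuts C3b and differed by -0.87 (SE 0.49) in the preservation comparison with overlapping groups. Of 5 membrane regulators, 2 were listed and 0 could be tested, so the surface shields CD46, CD55 and CD59 were not analysed here.

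Of 9 further receptors, 5 were listed and 4 tested. C5AR2, the other receptor of C5a and the direct neighbour of C5AR1 in the RefSeq annotation, was at 0.335, 1.31 and 1.25 TPM in NRP + HOPE 24 h, below the 1.37 to 1.96 TPM of NRP + SCS 2 h in all 3 hearts. The difference was -0.49 (SE 0.33, unadjusted p = 0.165, adjusted p = 0.993 by limma), and its values are near 1 TPM. The row with the symbol ITGAX, an integrin chain of complement receptors on myeloid cells, was higher in all 3 No NRP + HOPE 2 h hearts than in NRP + SCS 2 h, by 0.78 (SE 0.37, unadjusted p = 0.0563, adjusted p = 0.705 by limma), and differed by 0.61 in the preservation comparison. A gene-name table gives that gene ID the related symbol ITGAM, so the identity of the row is uncertain.

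**Figure D5:**
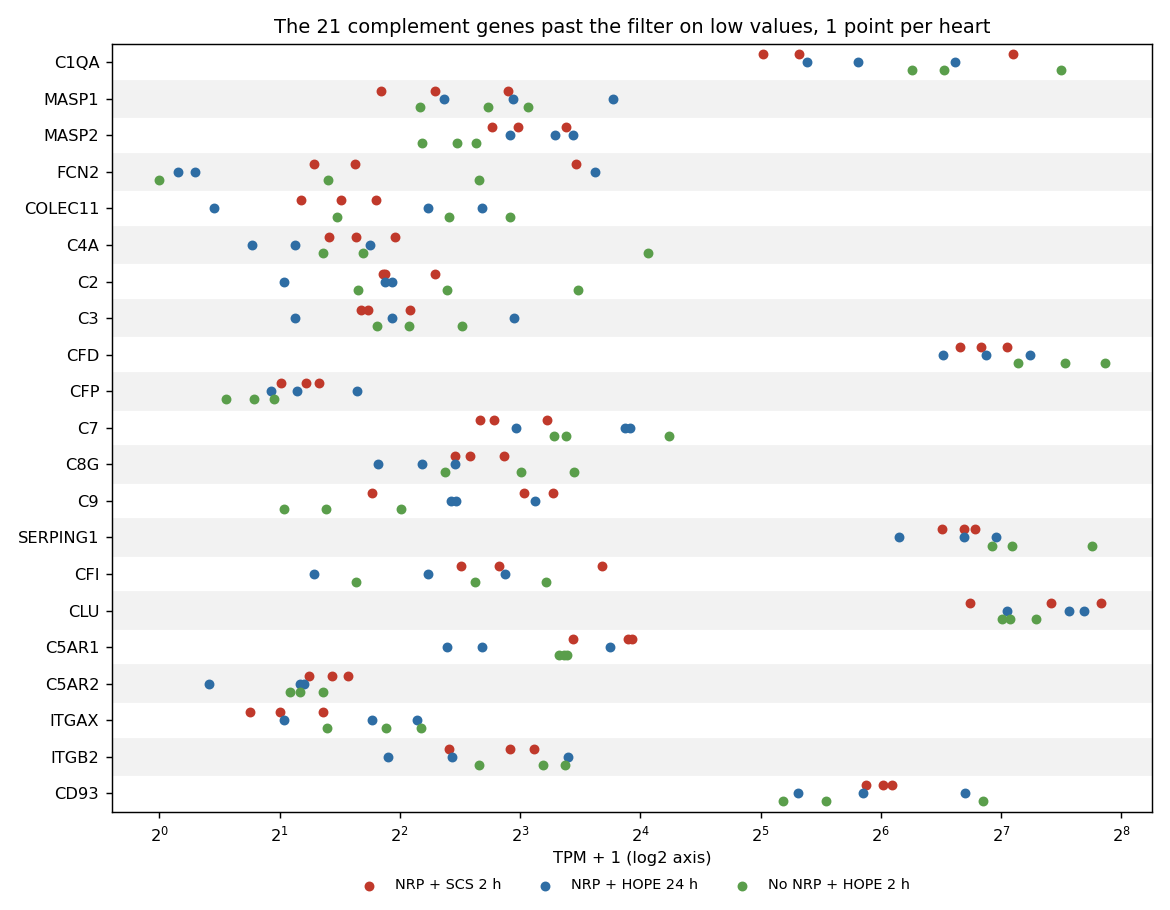
TPM + 1 (x axis, log2 scale) of the 21 complement genes with at least 1 TPM in 3 or more hearts (y axis, ordered by role from initiation to receptors) in each of the 9 hearts, each a point coloured by group. CFD, SERPING1, CLU, C1QA and CD93 form the abundant set, and MASP2 shows the No NRP + HOPE 2 h hearts at the low end. C9 does so too, except that pig 33 lies above the lowest NRP + SCS 2 h heart.

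The liver makes most circulating complement, so hepatocyte markers were set beside these levels. All 6 were listed, with FGB and TTR at 0 in every heart and ALB at or below 0.846 TPM. Their sum was 16.4 to 19.2 TPM in NRP + SCS 2 h, 13.8 to 16.6 TPM in NRP + HOPE 24 h and 17.2 to 32.9 TPM in No NRP + HOPE 2 h and was carried by APOA1. Mesothelial markers, which mark the surface of the heart, summed to 3.22 to 5.78 TPM, 3.19 to 4.34 TPM and 4.04 to 12.04 TPM in the same order, with 4 of 8 listed. The endothelial sum, with 6 of 8 listed, was 420 to 471 TPM, 227 to 477 TPM and 216 to 457 TPM.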

How the data were processed

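Apex biopsies of 9 pig hearts, each from a separate animal, were sequenced as poly(A)-enriched RNA (NovaSeq, paired-end). Per the submitters' processing notes, the tools were bcl2fastq 2.17, Trimmomatic 0.36, STAR 2.5.2b, featureCounts of Subread 1.5.2 and DESeq2; the genome build and the gene lengths behind TPM are not given in the sources used here. The deposited values are TPM made by the authors and sum to 1000000 per heart. The number of reads per heart is unknown, so no counting interval was given. A further 9 value columns matched no sample and were not used.

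A gene was kept if 3 or more of the 9 hearts reached 1 TPM (11782 of 25149 rows). log2(TPM + 1) was fitted by limma 3.58.1 (R 4.3.3) over all 9 hearts together, with group means as coefficients and a trended eBayes prior, and p was adjusted by Benjamini-Hochberg over all genes tested. The authors' test, DESeq2 on counts, could not be run on TPM. Calls required an absolute log2 difference above 1 besides an adjusted p under 0.05, and counts at an unadjusted p under 0.05 are descriptive. Exact permutation tests were two-sided. The limma script was tested on simulated data.

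Rows were matched by symbol. 12006 rows have no symbol, and 754 of them were given one by gene ID from a table of pig gene names. The members and gene lists were chosen with earlier results of these data known. Named beside the members were, of the 46 further complement genes, those at an unadjusted p under 0.05 and the 5 with the largest absolute log2 difference in each comparison, and for each member the 3 genes with the highest r. CFP, C5AR2, CLU and genes at 0 were named after their values were seen, as was the member sum. The fit was repeated with a pseudocount of 0.1, without the filter, on genes averaging 5 TPM or more, after quantile normalization, after median-of-ratios scaling, after removal of the mitochondrially encoded genes, on the 6 compared hearts alone, with array weights, with an untrended prior, and without each heart in turn. Figures were drawn with matplotlib 3.10.9.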

Additional observations from a re-analysis of the deposited data

How the results depend on the processing

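In each alternative run, 0 of the members and 0 of the further complement genes that the run could fit were called. Counts at an unadjusted p under 0.05 moved. In the preservation comparison the members' count of 1 was 0 with only the 6 hearts compared and 0 to 1 with a heart left out. The further genes' count of 0 was 1 with no filter, 3 under either median-of-ratios or quantile scaling, 2 with array weights, and 0 to 4 with a heart left out (4 without pig 27). In the NRP comparison the members' count of 1 was 2 under median-of-ratios or quantile scaling, with the mitochondrially encoded genes left out, only the 6 hearts compared or array weights, 0 with eBayes without trend, and 0 to 2 with a heart left out. The further genes' count of 1 was 3 with no filter or only the 6 hearts, 0 at a mean TPM of at least 5, 5 with median-of-ratios factors, 4 after quantile normalization, without mitochondrially encoded genes or array weights, 2 with eBayes without trend, and 0 to 3 with a heart left out. In the HOPE comparison the members' count of 2 was 3 with quantile normalization, without mitochondrially encoded genes or with array weights, 0 with only the 6 hearts or eBayes without trend, and 0 to 3 with a heart left out. The further genes' count of 3 was 1 at a mean TPM of at least 5 or with only the 6 hearts, and 1 to 4 with a heart left out. Over all 11782 genes tested, the counts at an unadjusted p under 0.05 moved too. In the preservation comparison 585 genes became 1006 under median-of-ratios factors, 1002 after quantile scaling and 1812 with array weights. In the same order, 851 became 1458, 1452 and 1864 in the NRP comparison, and 708 became 1374, 1349 and 1869 in the HOPE comparison. Some runs gave fewer, such as 378, 768 and 485 without pig 28. The moves were thus not limited to complement genes, and their cause was not tested.

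Differences near 0 changed sign. In the preservation comparison, CFD was -0.22 with array weights, -0.065 without pig 24 and -0.15 without pig 30, and C3 was -0.30 without pig 30 (0.61 without pig 27), with a highest value for CFD of 0.21 without pig 28. SERPING1 was 0.085 after median-of-ratios scaling, 0.0092 after quantile normalization, 0.00036 without pig 24 and 0.16 without pig 27, and at its lowest -0.24 without pig 30. In the HOPE comparison, C3 was 0.31 without pig 27 and 0.063 without pig 33, and -0.60 without pig 30. Among member pairs, r of C2 and CFD was -0.042 after median-of-ratios scaling and -0.0064 after quantile normalization, and r of C2 and C5AR1 was -0.025, -0.035 and, without pig 27, -0.11 (0.52 without pig 34). It was -0.045 for CFD and C5AR1 without pig 28 (0.41 without pig 24), and for C5AR1 and SERPING1 -0.016 with median-of-ratios scaling and -0.046 without pig 27 (0.57 without pig 34). C5AR1 in the preservation comparison stayed below 0 in all 18 alternatives (-1.22 to -0.54, adjusted p 0.114 to 1.0 by limma), and CFD (0.49 to 0.85, adjusted p 0.0952 to 0.999) and SERPING1 (0.35 to 0.76, adjusted p 0.186 to 0.999) in the NRP comparison stayed above 0. C2 and C3 could not be fitted at a mean TPM of at least 5, which they do not reach. No paired analysis was possible because each pig gave 1 heart and the groups share no pig numbers.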
